A study of Macaca mulatta with 12 samples.

Results

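Interferon-stimulated genes are the genes that cells switch on when an interferon binds its receptor, and their regulators are the receptors, transcription factors and inhibitors of that signal. The 52 genes described here were taken by symbol from the annotation of a rhesus macaque array: the IFI, IFIT, IFIH, IFITM, OAS, GBP, MX, STAT, IRF, SOCS, IFNAR, IFNGR and SAMD9 families, plus a short list of single genes such as ISG15, ISG20, HERC6 and BST2. They are 52 of 14132 genes with 1 symbol on a probe set, and each is represented by its brightest probe set of the 99 that carry a member's symbol. IRF2BP1, a protein that binds IRF2, came in through its symbol. IFNAR1, IFNGR1, IFNGR2, IRF9, USP18, IFI6, IFITM3, RSAD2 and SAMD9 had no probe set with that symbol alone and are not analysed here.

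Type I interferons signal through IFNAR1 and IFNAR2 to transcription factors that include STAT2 and IRF9, which bind the promoters of antiviral genes. Interferon gamma signals through IFNGR1 and IFNGR2 and induces IRF1 and the guanylate-binding proteins. SOCS proteins inhibit the receptor-bound kinases. In the corpus luteum, the transient gland that secretes progesterone after ovulation, immune cells are known to accumulate as the gland regresses, and these cells both make and answer interferons.

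Total RNA from 12 whole corpora lutea of female rhesus macaques with normal menstrual cycles was measured on Affymetrix arrays, 1 array per gland. The 3 groups had 4 arrays each. Late regressed glands were taken 14 to 16 days after the LH surge with serum progesterone below 0.5 ng/ml. Late functional glands were taken at the same days with serum progesterone above 1.5 ng/ml. Mid-late glands, the baseline, were taken on days 10 to 12 while still functional. No agent was given and no gene altered in any group. The late groups were split by serum progesterone alone, and the labels describe both as being in functional regression, the fall in progesterone output that precedes tissue breakdown. Values are log2 array values as deposited, processed with RMA per the submitters' processing notes. A group value is the mean ± SD over n = 4 arrays. A difference is between group means on the log2 scale, with the SE of the limma fit. A gene was "called" at a Benjamini-Hochberg adjusted p below 0.05 over all probe sets. Signals of different genes cannot be set against each other on such arrays, so each gene was compared only with itself.

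The arrays of one group correlated at 0.961 to 0.983 in late regressed, 0.986 to 0.996 in late functional and 0.987 to 0.995 in mid-late glands. Late regressed array 2 stood apart in RNA quality: the 3′ minus 5′ control signal was 2.52 there, against 0.462 to 0.699 on the other late regressed arrays, 0.534 to 0.613 in late functional and 0.625 to 0.689 in mid-late glands. All 5 measured luteal cell markers lay above the low-signal level defined below. HSD3B2, an enzyme of progesterone synthesis, averaged 8.55 ± 0.47 in late regressed, 9.97 ± 0.68 in late functional and 11.66 ± 0.38 in mid-late glands. It was the 1 marker of the 5 called in late functional against mid-late glands, where their median difference was -0.037. In late regressed against mid-late glands their median difference was -2.20, with HSD3B2 and CYP19A1 called lower. Of 15 macrophage markers, 13 were measured and none had a group mean at the low-signal level. Their mean was 8.51, 8.77, 9.79 and 8.08 on the 4 late regressed arrays, 8.94 to 9.03 on the late functional ones, and 6.75, 7.25, 8.70 and 8.02 on the mid-late ones. In whole-gland RNA, fewer cells of a type and less RNA per cell cannot be told apart.

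The late functional gland was where most interferon genes were highest. Of the 52 genes, 29 had their highest group mean in late functional, 18 in late regressed and 5 in mid-late glands. Over all 14132 genes, 23.5% were highest in late functional, 35.4% in late regressed and 41.2% in mid-late glands. The members leaned to the late functional stage, and the genes at large did not. The moderated F test of limma, which asks for any difference among the 3 groups, called 10 of the 52 genes (19.2%; background 6.65% of all genes): SAMD9L, OAS1, RTP4, GBP2, STAT6, IRF1, PLAAT4, IFI27, IFIT1 and IFI35. In all, 13 of the 52 were called in a comparison or by the F test and 39 nowhere.

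**Figure D1:**
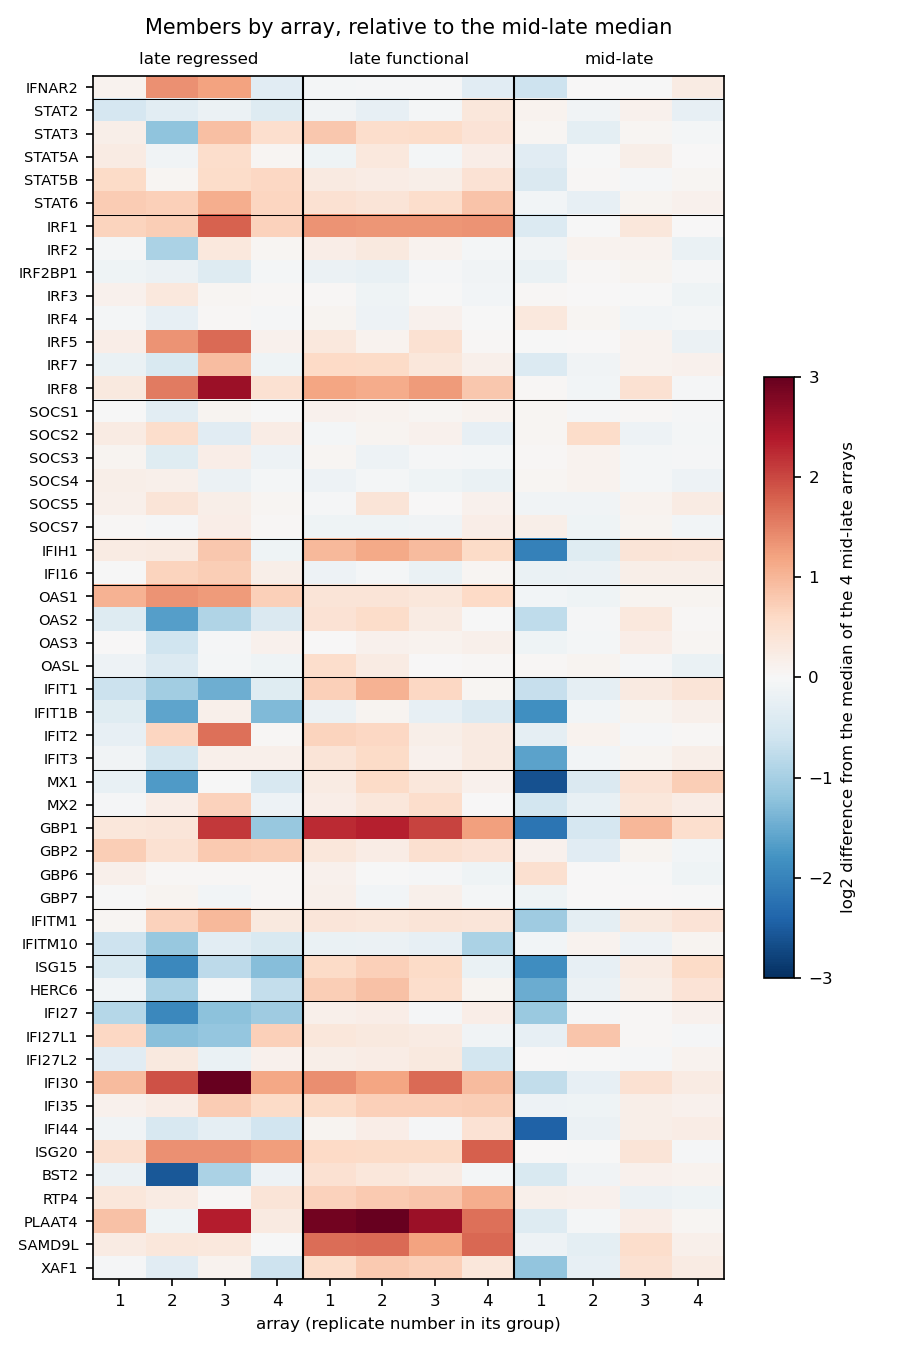
Each row is 1 of the 52 genes, grouped by role, and each column 1 array; colour is the log2 difference from the median of the 4 mid-late arrays, and values beyond the colour bar's ends carry its end colours. The late functional columns are the most evenly red, with 29 of 52 genes highest there, and the late regressed columns hold both the red of OAS1, GBP2, STAT6 and IFI30 and the blue of IFI27, IFIT1, ISG15 and BST2.

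Late functional against mid-late glands asks what changed with age while progesterone was still made. SAMD9L, IRF1 and IFI35 were higher in late functional glands, by 1.6-fold to 2.86-fold, and no member was called lower. RTP4 and PLAAT4 were also called higher, by at least 1.2-fold and at least 5.36-fold against a low-signal level of 4.64, because their mid-late means lay below it. That level is the 95th percentile of 674 probe sets with the prefix NC, whose targets are unknown here. A gene below it was treated as low in signal, and the bounds depend on that choice. The PLAAT4 value rests on a probe set of a cross-hybridising type, and its other probe set had a difference of -0.18. The 5 calls are 9.62% of the 52 genes, against a background of 0.58% of all genes called higher, 0.594% called lower and 1.17% called in either direction. The whole set leaned the same way: 41 of 52 differences were above 0, with a median of 0.37, while the median over all genes was -0.0056. In 17 genes (32.7%; background 10.4%) every late functional array lay above every mid-late array, and in 1 gene, IFITM10 (background 8.5%), every one lay below.

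Late regressed against late functional glands compares glands of the same days with low and with maintained progesterone. Limma called no member (background 0.00708% of all genes, 1 gene called). At an unadjusted p below 0.05 there were 16 of 52 members (30.8%) and 2278 of all genes (16.1%). In 12 members (23.1%; background 3.28%) every late regressed array lay below every late functional array: BST2, HERC6, IFI27, IFI44, IFIT1, ISG15, MX1, OAS2, OASL, RTP4, SAMD9L and XAF1. OAS1, by its brightest probe set, was the single member with every late regressed array above (background 2.63%). In the next 2 probe sets of OAS1 every late regressed array lay below every late functional array. In all, 19 of the 52 differences were above 0, the highest in IFNAR2 at 0.70. IRF5, IFI30 and IFI16 had differences of 0.63, 0.61 and 0.48, and GBP2, IFITM1 and IFIT2 of 0.32, 0.15 and 0.09. The same 12 genes were apart without late regressed array 2 (background 4.54%), and 19 genes were apart without late regressed array 3 (background 4.31%). The median difference was -0.19 over the 52 genes and 0.0026 over all genes.

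Late regressed against mid-late glands compares regressed glands with the baseline. OAS1, GBP2, STAT6, IRF1, IFI30, STAT5B and ISG20 were higher in late regressed glands, by 1.45-fold to 3.97-fold, and IFI27 was lower. The 7 higher and 1 lower calls make up 15.4% of the 52 genes, against backgrounds of 7.6% called higher, 5.51% called lower and 13.1% in either direction. That total is close to the background. Every late regressed array lay above every mid-late array in 8 genes (15.4%; background 10.8%) and below in 1, IFITM10 (background 9.96%). The median difference was 0.13 over the 52 genes and -0.0232 over all genes.

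**Figure D2:**
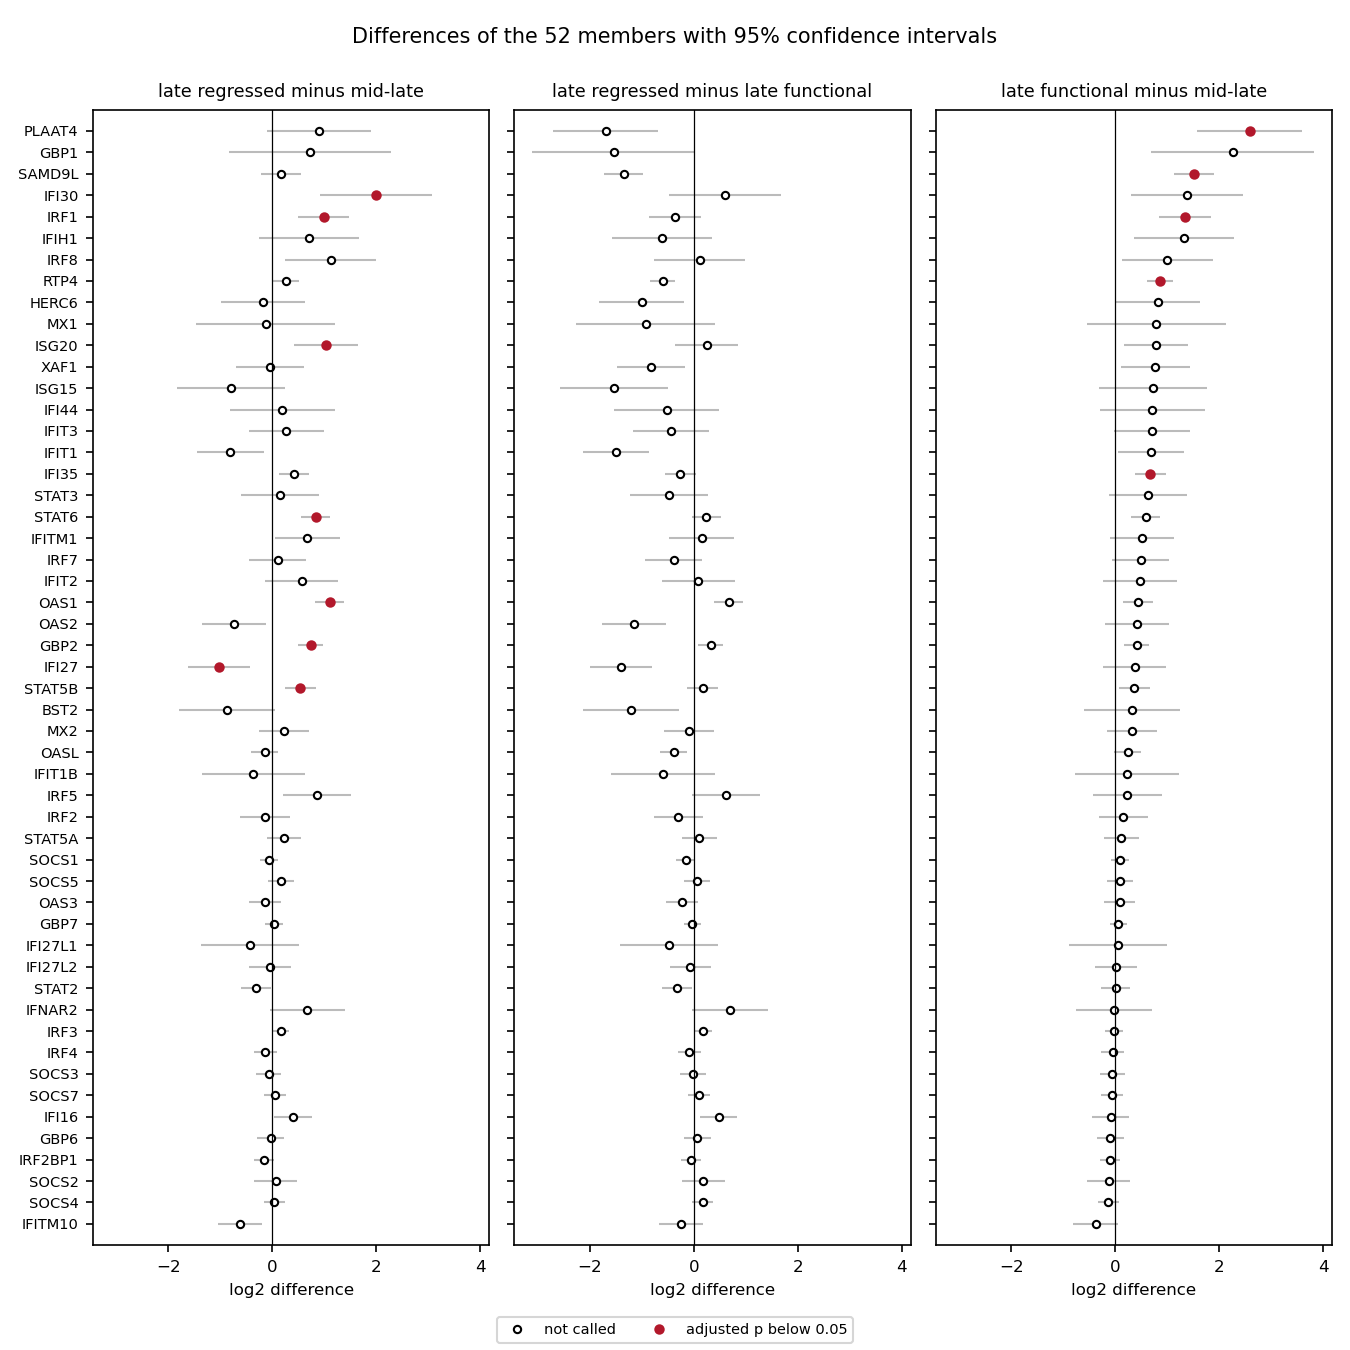
Points are the log2 differences of the 52 genes in the 3 comparisons, bars their 95% confidence intervals from limma, and filled points the genes with an adjusted p below 0.05. In the panel of late functional minus mid-late glands 41 of 52 points lie right of 0, and in the panel of late regressed minus late functional glands 33 lie at or left of 0 with none filled.

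Both comparisons with mid-late glands use the same 4 mid-late arrays, and both that involve late functional glands the same 4 late functional arrays, so their values are given side by side and no overlap between them is read. A few arrays were often at the end of their group's range. Mid-late array 1 carried the lowest value of its group in 29 of the 52 genes (55.8%, against 26.6% of all genes). Late regressed array 3 carried the highest of its group in 30 (57.7%, against 19% of all genes), and late regressed array 2 the lowest in 24 (46.2%, against 23.2%). Late functional array 4 carried the lowest of its group in 25 (48.1%, against 34.7% of all genes). The macrophage marker mean was likewise lowest of its group on mid-late array 1 and highest of its group on late regressed array 3, and its part in these ranks was not tested.

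The receptor is represented by IFNAR2, a chain of the type I interferon receptor. IFNAR2 read 7.29, 8.55, 8.39 and 6.86 in late regressed, 7.13, 7.16, 7.16 and 6.86 in late functional and 6.58, 7.20, 7.19 and 7.44 in mid-late glands. Late regressed arrays 2 and 3 were the high ones and the groups overlapped. The difference of late regressed from late functional glands was 0.70 ± 0.33 (SE; adjusted p = 0.445).

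Among the 5 STAT transcription factors, STAT6 and STAT5B were called higher in late regressed than in mid-late glands and STAT2, STAT3 and STAT5A in no comparison. STAT6, which carries the signal of interleukins 4 and 13, read 8.70, 8.65, 9.04 and 8.59 in late regressed, 8.41, 8.34, 8.47 and 8.80 in late functional and 7.88, 7.70, 8.02 and 8.07 in mid-late glands. Every array of either late group lay above every mid-late array, and the late groups overlapped. STAT6 was 1.78-fold higher in late regressed than in mid-late glands (log2 difference 0.83 ± 0.13 SE, adjusted p = 0.00749) and 1.5-fold higher by its means in late functional glands (0.59, adjusted p = 0.0579). STAT5B, which carries the signals of prolactin and growth hormone, read 7.37, 6.87, 7.35 and 7.42 in late regressed, 7.09, 7.02, 6.98 and 7.25 in late functional and 6.38, 6.83, 6.78 and 6.87 in mid-late glands. Late regressed array 2 and mid-late array 1 were the low ones of their groups, and late regressed and mid-late values stayed just apart. The difference of late regressed from mid-late glands was 0.54 ± 0.14 (SE; adjusted p = 0.0348). The call of STAT5B was kept in 5 of 12 fits that left out 1 array. STAT5B and STAT6 have 3 and 2 further probe sets, of which none was called in that comparison.

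STAT2, a transcription factor of type I signalling, read 4.55 to 4.86 in late regressed, 4.80 to 5.39 in late functional and 4.80 to 5.17 in mid-late glands. Its late regressed mean was the lowest, at a difference of -0.32 from either other group (adjusted p = 0.129 against mid-late and 0.36 against late functional glands). STAT3, the main STAT of the interleukin 6 family, read 7.39, 6.01, 8.11 and 7.72 in late regressed, 7.62 to 8.02 in late functional and 6.92 to 7.28 in mid-late glands. Every late functional array of STAT3 lay above every mid-late array, with a difference of 0.63 ± 0.34 (SE; adjusted p = 0.348). The wide spread in late regressed glands came with a low value on array 2, the array with the high 3′ minus 5′ control signal. STAT5A lay below the low-signal level in every group mean.

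Of the 8 IRF genes, IRF1 was called. IRF1, a transcription factor that interferon gamma induces and that itself activates interferon-stimulated genes, read 7.11, 7.16, 8.20 and 7.12 in late regressed, 7.77, 7.75, 7.75 and 7.77 in late functional and 6.02, 6.41, 6.78 and 6.45 in mid-late glands. The late functional values were nearly identical, late regressed array 3 stood above the rest of its group, and no array of either late group reached down to the mid-late ones. IRF1 was 2.54-fold higher in late functional than in mid-late glands (1.35 ± 0.23 SE, adjusted p = 0.0358) and 1.98-fold higher in late regressed than in mid-late glands (0.98 ± 0.23 SE, adjusted p = 0.0246). Between late regressed and late functional glands the difference was -0.36, with a 95% interval of -0.86 to 0.14 (adjusted p = 0.591). Of the 12 fits without 1 array, the IRF1 call held in 4 for late functional and in 10 for late regressed glands. The 2 lost for late regressed glands were those without mid-late array 1 (adjusted p = 0.0668) and without mid-late array 2 (adjusted p = 0.0604).

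IRF8, a transcription factor of the macrophage and dendritic cell lineages, read 5.29, 6.56, 7.58 and 5.47 in late regressed, 6.20, 6.13, 6.28 and 5.81 in late functional and 5.03, 4.92, 5.47 and 4.98 in mid-late glands. Late functional arrays lay above all mid-late ones, whereas late regressed arrays 2 and 3 were high and arrays 1 and 4 near mid-late values. The differences from mid-late glands were 1.12 ± 0.40 (SE; adjusted p = 0.0908) for late regressed and 1.01 ± 0.40 (SE; adjusted p = 0.206) for late functional glands. The probe sets of IRF8 disagreed: against mid-late glands the next brightest was higher in late regressed glands by 1.60 (adjusted p = 0.044) and the dimmest was lower, with a difference of -1.13 (adjusted p = 0.0325). IRF5, a mediator of Toll-like receptor signals in myeloid cells, showed the same high pair of late regressed arrays, at 6.74 and 7.10 against 5.61 and 5.53 on arrays 1 and 4. The mean of the 13 macrophage markers was 8.51, 8.77, 9.79 and 8.08 on late regressed arrays 1 to 4. Array 3 stood highest and array 2 was close to array 1, so the markers as a set did not show the high pair. CYBB, a subunit of the phagocyte oxidase and the 1 marker of the 13 called, did, at 7.33, 10.30, 10.87 and 7.27. The part of these markers in the IRF5 and IRF8 values was not tested.

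IRF3 and IRF7, which switch on the interferon genes themselves, were not called. IRF7 read 6.19, 5.91, 7.30 and 6.25 in late regressed, 6.99, 6.96, 6.72 and 6.53 in late functional and 5.97, 6.27, 6.49 and 6.50 in mid-late glands, and every late functional array lay above every mid-late array (0.49 ± 0.25 SE, adjusted p = 0.323). IRF3 stayed within 8.41 to 8.69 in late regressed, 8.24 to 8.42 in late functional and 8.24 to 8.43 in mid-late glands. The differences of IRF2, IRF2BP1 and IRF4 from mid-late glands were between -0.16 and 0.15 in either late group, and IRF4 lay below the low-signal level in every group.

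None of the 6 SOCS inhibitors was called in any comparison. Their differences ran from -0.07 to 0.16 in late regressed against mid-late, from -0.16 to 0.19 in late regressed against late functional and from -0.13 to 0.09 in late functional against mid-late glands. SOCS1, an inhibitor of JAK kinases that interferons induce, averaged 6.50 ± 0.17 in late regressed, 6.66 ± 0.03 in late functional and 6.56 ± 0.05 in mid-late glands. SOCS3, its counterpart in interleukin 6 signalling, averaged 3.74 ± 0.25, 3.75 ± 0.09 and 3.81 ± 0.07 in the same order of groups. SOCS3, SOCS4 and SOCS7 lay below the low-signal level in all 3 group means.

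IFIH1, the MDA5 sensor of double-stranded RNA, read 6.61, 6.62, 7.18 and 6.22 in late regressed, 7.34, 7.51, 7.30 and 6.94 in late functional and 4.34, 6.0, 6.75 and 6.72 in mid-late glands. Every late functional array lay above every mid-late array, and mid-late array 1 was far below the others of its group. The difference of late functional from mid-late glands was 1.32 ± 0.44 (SE; adjusted p = 0.146). IFI16, a DNA sensor, averaged 10.23 ± 0.37 in late regressed, 9.75 ± 0.12 in late functional and 9.84 ± 0.21 in mid-late glands and was not called.

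SAMD9L and RTP4 had the smallest adjusted p of the 5 genes called higher in late functional glands. SAMD9L, which restrains cell growth and viral replication, read 8.08, 8.16, 8.13 and 7.82 in late regressed, 9.49, 9.53, 9.03 and 9.55 in late functional and 7.67, 7.53, 8.36 and 7.98 in mid-late glands. All 4 late functional arrays lay above the 8 others, which overlapped. SAMD9L was 2.86-fold higher in late functional than in mid-late glands (1.52 ± 0.17 SE, adjusted p = 0.0139). It was 2.55-fold lower in late regressed than in late functional glands (-1.35 ± 0.17 SE, adjusted p = 0.0506), which missed the threshold. That comparison was called in 4 of 12 fits without 1 array, those without mid-late array 3 (adjusted p = 0.0459), late functional array 4 (0.0326), late regressed array 1 (0.0119) or late regressed array 4 (0.0374). The next probe set of SAMD9L was also called higher in late functional than in mid-late glands, by 1.05 ± 0.20 (SE; adjusted p = 0.0418). Its late regressed and mid-late means, 3.56 and 3.83, lay below the low-signal level of 4.64, so the size of that difference is uncertain.

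RTP4, an interferon-induced chaperone of membrane receptors, read 4.39, 4.30, 4.10 and 4.45 in late regressed, 4.75, 4.85, 4.89 and 5.14 in late functional and 4.20, 4.18, 3.88 and 3.94 in mid-late glands. It was the other gene of the 52 with all 4 late functional arrays above the 8 others, a pattern found in 0.842% of all genes. RTP4 was higher in late functional than in mid-late glands, with a log2 difference of 0.86 ± 0.11 (SE; adjusted p = 0.0194), and its late regressed and mid-late means lay below the low-signal level. PLAAT4, a phospholipase and acyltransferase that retinoids also induce, read 5.45, 4.42, 6.90 and 4.84 in late regressed, 7.46, 7.58, 7.12 and 6.22 in late functional and 4.16, 4.51, 4.76 and 4.61 in mid-late glands. Late regressed array 3 reached the late functional range while the other late regressed arrays stayed lower. PLAAT4 was higher in late functional than in mid-late glands, with a log2 difference of 2.59 ± 0.46 (SE; adjusted p = 0.0363), and the mid-late mean of 4.51 lay below the low-signal level. With cross-hybridising types of probe set left out, the call ended and the direction turned. The probe set that then stands for PLAAT4, dim in all groups at means of 3.61 in late regressed, 3.62 in late functional and 3.80 in mid-late glands, had a difference of -0.18 (adjusted p = 0.367).

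IFI35, a partner of the NMI protein, read 7.80, 7.91, 8.44 and 8.26 in late regressed, 8.25, 8.39, 8.38 and 8.42 in late functional and 7.54, 7.54, 7.85 and 7.82 in mid-late glands. Late functional arrays lay above all mid-late ones, and late regressed arrays ran across both ranges. IFI35 was 1.6-fold higher in late functional than in mid-late glands (0.67 ± 0.14 SE, adjusted p = 0.0475). The calls in late functional glands were kept in 11 of the 12 fits without 1 array for SAMD9L, 10 for RTP4, 5 for PLAAT4 and 3 for IFI35. Without late functional array 2 the adjusted p was 0.0741 for SAMD9L and RTP4, 0.118 for PLAAT4, 0.107 for IRF1 and 0.136 for IFI35, so no member was called.

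**Figure D3:**
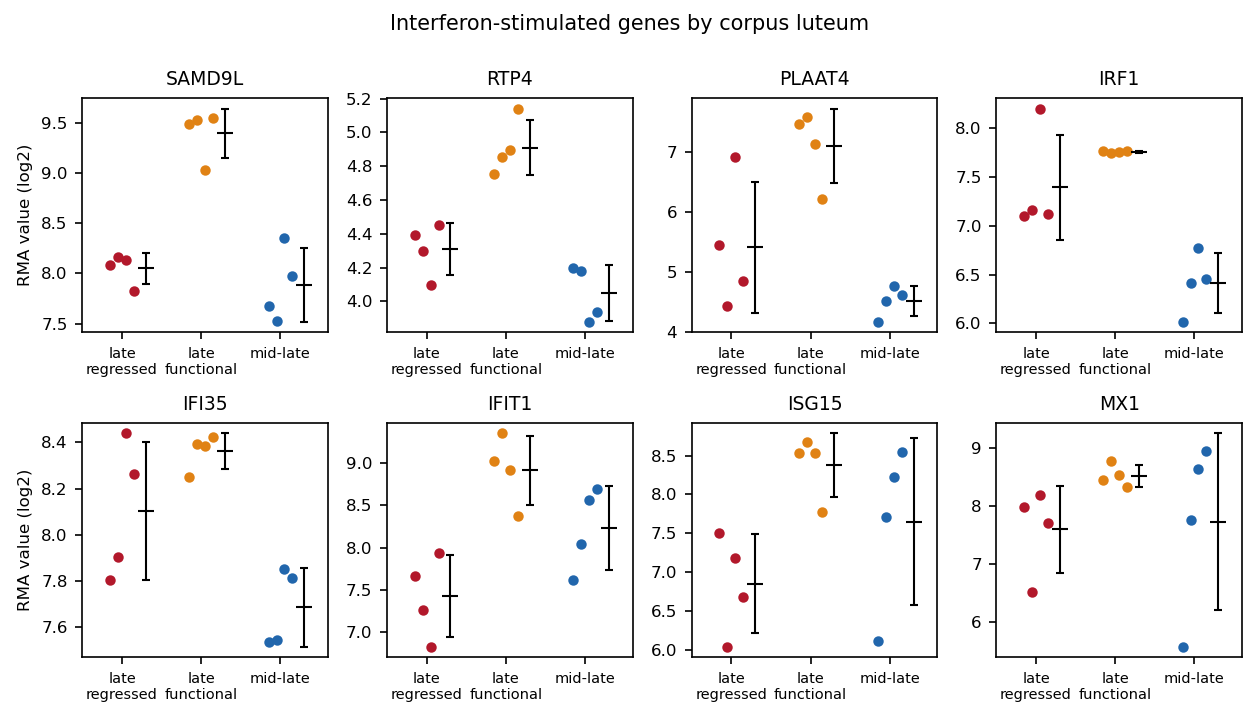
Points are the RMA log2 values of single arrays for 8 interferon genes, with late regressed, late functional and mid-late glands from left to right, and bars the mean ± SD over 4 arrays; each panel has its own axis. SAMD9L and RTP4 have all late functional points above the other 8, and ISG15 and MX1 show the low mid-late array 1 at 6.11 and 5.58.

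The antiviral effectors IFIT1, ISG15, MX1, OAS2, BST2, HERC6 and XAF1 each had their lowest group mean in late regressed and their highest in late functional glands. IFIT1, which binds foreign RNA ends, read 7.67, 7.26, 6.83 and 7.94 in late regressed, 9.02, 9.35, 8.92 and 8.37 in late functional and 7.62, 8.04, 8.57 and 8.69 in mid-late glands. Late regressed values lay wholly below late functional ones, and mid-late values overlapped both. The F test called IFIT1 (adjusted p = 0.036), and no pair of groups did: the difference was -1.49 ± 0.29 (SE; adjusted p = 0.118) in late regressed against late functional and -0.81 ± 0.29 (SE; adjusted p = 0.095) in late regressed against mid-late glands. ISG15, a ubiquitin-like protein attached to other proteins, read 7.50, 6.04, 7.18 and 6.68 in late regressed, 8.53, 8.67, 8.53 and 7.77 in late functional and 6.11, 7.71, 8.22 and 8.55 in mid-late glands. Late regressed and late functional values did not overlap (-1.53 ± 0.47 SE, adjusted p = 0.26). Without mid-late array 1, the late regressed values of BST2, IFI27, IFIT1, IFITM10, IRF2BP1, ISG15 and OAS2 lay wholly below the mid-late ones, 7 genes in place of 1 (13.5%; background 11.8%).

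HERC6, the ligase that attaches ISG15 in the mouse, read 6.58, 5.70, 6.63 and 5.93 in late regressed, 7.39, 7.54, 7.18 and 6.75 in late functional and 5.16, 6.47, 6.84 and 7.07 in mid-late glands. Its late regressed minus late functional difference was -1.0 ± 0.37 (SE; adjusted p = 0.327). MX1, a dynamin-like antiviral GTPase, read 7.99, 6.52, 8.19 and 7.71 in late regressed, 8.46, 8.78, 8.54 and 8.33 in late functional and 5.58, 7.77, 8.64 and 8.95 in mid-late glands. Mid-late glands thus held both the lowest and the highest MX1 values of the 12, and the SD was 0.19 in late functional and 1.52 in mid-late glands. The difference of MX1 between late regressed and late functional glands was -0.92 ± 0.61 (SE; adjusted p = 0.622). MX2, its neighbour in the genome, averaged 6.07 ± 0.37 in late regressed, 6.17 ± 0.22 in late functional and 5.84 ± 0.42 in mid-late glands.

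BST2, the tetherin that holds budding virus at the cell surface, read 11.75, 9.39, 10.98 and 11.79 in late regressed, 12.38, 12.28, 12.19 and 11.87 in late functional and 11.48, 11.84, 12.06 and 12.03 in mid-late glands. Late regressed arrays 2 and 3 were the low ones, and arrays 1 and 4 lay just under the late functional values (-1.20 ± 0.42 SE, adjusted p = 0.306). XAF1, which opposes the apoptosis inhibitor XIAP, read 5.18, 4.88, 5.32 and 4.59 in late regressed, 5.77, 6.0, 5.92 and 5.54 in late functional and 4.03, 4.97, 5.68 and 5.46 in mid-late glands. The late regressed values lay below the late functional ones (-0.82 ± 0.30 SE, adjusted p = 0.324). IFIT3, which stabilises IFIT1, averaged 10.19 ± 0.32 in late regressed, 10.62 ± 0.18 in late functional and 9.92 ± 0.84 in mid-late glands. IFIT2, of the same gene cluster, averaged 8.17 ± 0.85, 8.09 ± 0.24 and 7.61 ± 0.16 in the same order of groups, and neither was called.

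IFI27, a small interferon-induced membrane protein, was the 1 member called lower in late regressed than in mid-late glands. IFI27 read 12.11, 11.04, 11.73 and 11.92 in late regressed, 13.12, 13.17, 12.95 and 13.18 in late functional and 11.86, 12.95, 13.00 and 13.11 in mid-late glands. The late regressed arrays lay below all late functional ones, and mid-late array 1 fell into the late regressed range. IFI27 was 2.04-fold lower in late regressed than in mid-late glands (-1.03 ± 0.27 SE, adjusted p = 0.0384) and 2.65-fold lower by its means than in late functional glands (-1.40 ± 0.27 SE, adjusted p = 0.118). The call was kept in 4 of 12 fits without 1 array. Without late regressed arrays 2 and 3 together the difference was -0.72 (adjusted p = 0.191). Its genomic neighbours IFI27L1 and IFI27L2 were not called, with differences of -0.42 and -0.04 between late regressed and mid-late glands.

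The 2′-5′ oligoadenylate synthetases make the messenger that activates ribonuclease L. OAS1 and OAS3 are direct neighbours in the macaque genome and OAS2 lies in the same cluster. The brightest OAS1 probe set and OAS2 went opposite ways in late regressed glands by their values. Against late functional glands, the next 2 OAS1 probe sets went the way of OAS2. The brightest OAS1 probe set read 8.59, 8.90, 8.83 and 8.26 in late regressed, 7.94, 7.95, 7.88 and 8.14 in late functional and 7.47, 7.41, 7.63 and 7.64 in mid-late glands. The 3 groups did not overlap at all. OAS1 was 2.15-fold higher in late regressed than in mid-late glands (1.11 ± 0.13 SE, adjusted p = 0.00548), a call kept in all 12 fits without 1 array, and 1.59-fold higher by its means than in late functional glands (0.67 ± 0.13 SE, adjusted p = 0.115). OAS2 read 6.86, 5.61, 6.35 and 6.81 in late regressed, 7.70, 7.80, 7.49 and 7.26 in late functional and 6.50, 7.22, 7.56 and 7.30 in mid-late glands. Late regressed values of OAS2 lay below all late functional ones (-1.15 ± 0.28 SE, adjusted p = 0.189). OAS3 averaged 6.44 ± 0.33 in late regressed, 6.66 ± 0.06 in late functional and 6.57 ± 0.14 in mid-late glands.

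The probe sets of OAS1 disagreed. The next brightest read 7.77, 5.50, 7.53 and 7.53 in late regressed, 8.39, 8.57, 8.37 and 8.05 in late functional and 6.87, 8.15, 7.24 and 7.40 in mid-late glands, and the one after that had the same order of group means. In both of these probe sets the late functional mean was the highest, with differences of 0.93 from mid-late glands (adjusted p = 0.278 and 0.172), and late regressed minus mid-late differences were -0.33 and -0.14 (adjusted p = 0.646 and 0.808). The negative sign against mid-late glands rested on late regressed array 2, the array of poor RNA quality, at 5.50 and 5.59. The other late regressed arrays, at 7.53 to 7.77 and 6.84 to 7.24, lay above the mid-late means of 7.42 and 6.79. Every late regressed array lay below every late functional array in both, with differences of -1.26 and -1.08 (adjusted p = 0.3 and 0.262). A dimmer probe set went the way of the brightest: late regressed glands were higher by 0.92 than mid-late (adjusted p = 0.064) and by 1.05 than late functional glands (adjusted p = 0.235). Its late functional and mid-late means, 3.70 and 3.84, lay below the low-signal level. None of the 4 further OAS1 probe sets was called. With the mean over the probe sets of a gene in place of the brightest, the late regressed minus mid-late difference of OAS1 was 0.31 (adjusted p = 0.249). The sources used here do not say which transcripts each OAS1 probe set detects.

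GBP1 and GBP2 are adjacent genes for guanylate-binding proteins, GTPases that attack intracellular pathogens. GBP2 read 8.23, 7.96, 8.29 and 8.24 in late regressed, 7.84, 7.72, 7.97 and 7.90 in late functional and 7.62, 7.16, 7.58 and 7.42 in mid-late glands. Both late groups lay above mid-late glands and overlapped each other by late regressed array 2. GBP2 was 1.67-fold higher in late regressed than in mid-late glands (0.74 ± 0.11 SE, adjusted p = 0.00742), a call kept in all 12 fits without 1 array. Its 2 dimmer probe sets differed by 0.07 and 0.02 in that comparison (adjusted p = 0.943 and 0.964), and the mean over its 3 probe sets by 0.27 (adjusted p = 0.458). Both dimmer ones had late regressed and mid-late means below the low-signal level of 4.64, so their small differences say little about GBP2.

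After PLAAT4, GBP1 had the largest late functional minus mid-late difference of the 52 genes. It read 7.42, 7.45, 9.19 and 5.95 in late regressed, 9.32, 9.42, 9.11 and 8.30 in late functional and 4.90, 6.57, 8.07 and 7.59 in mid-late glands. Late functional arrays lay above all mid-late ones, with a difference of 2.26 ± 0.72 (SE; adjusted p = 0.133). The 4 brightest of its 6 probe sets had late functional minus mid-late differences of 2.04 to 2.74 (adjusted p from 0.0932 to 0.134). GBP6 and GBP7 lay below the low-signal level in all 3 group means.

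**Figure D4:**
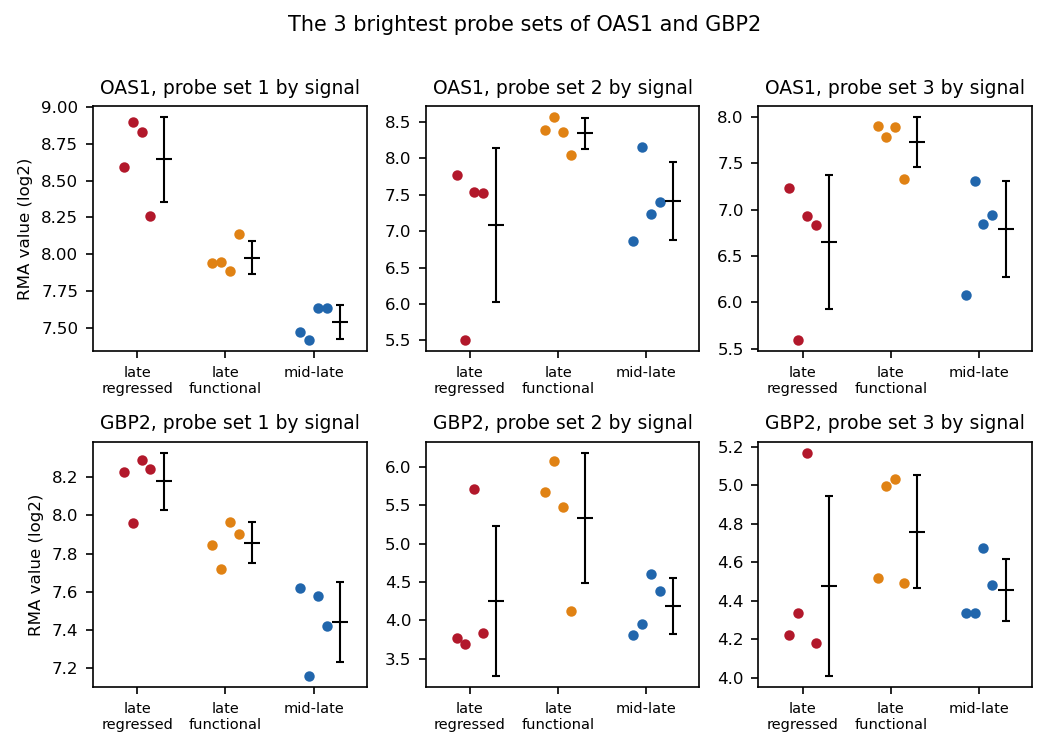
Points are the RMA log2 values of single arrays for the 3 brightest probe sets of OAS1 (top) and GBP2 (bottom), with late regressed, late functional and mid-late glands from left to right, and bars the mean ± SD over 4 arrays; each panel has its own axis. In the left panels late regressed glands are highest, and in the other panels late functional glands have the highest mean. The GBP2 probe sets of those other panels averaged 4.59 and 4.57 over the 12 arrays, below the low-signal level of 4.64.

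IFI30, the lysosomal thiol reductase that antigen-presenting cells use, read 9.95, 10.91, 12.63 and 10.15 in late regressed, 10.39, 10.18, 10.70 and 9.94 in late functional and 8.25, 8.75, 9.44 and 9.24 in mid-late glands. Both late groups lay above all mid-late arrays, and late regressed array 3 was the highest of the 12. IFI30 was 3.97-fold higher in late regressed than in mid-late glands (1.99 ± 0.49 SE, adjusted p = 0.0307) and 2.6-fold higher by its means in late functional glands (1.38 ± 0.49 SE, adjusted p = 0.168). Its call was lost without mid-late array 1 (adjusted p = 0.0832), mid-late array 2 (0.0765) or late regressed array 2 (0.0525). The 13 macrophage markers had a median late regressed minus mid-late difference of 1.58 with 1 of 13 called, CYBB, and a median late functional minus mid-late difference of 1.28 with none called. Their part in the IFI30 values was not tested.

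ISG20, an exonuclease of single-stranded RNA, read 6.59, 7.48, 7.47 and 7.36 in late regressed, 6.69, 6.67, 6.67 and 7.90 in late functional and 6.11, 6.10, 6.49 and 6.07 in mid-late glands. Late regressed array 1, late functional array 4 and mid-late array 3 each stood off from their group, and both late groups lay above all mid-late arrays. ISG20 was 2.05-fold higher in late regressed than in mid-late glands (1.03 ± 0.28 SE, adjusted p = 0.041), a call kept in 2 of 12 fits without 1 array. IFITM1, which blocks viral entry, averaged 10.56 ± 0.40 in late regressed, 10.41 ± 0.01 in late functional and 9.89 ± 0.67 in mid-late glands. IFITM10 was the 1 member below all mid-late arrays in both late groups, at 4.14 to 4.95 in late regressed and 4.33 to 5.10 in late functional against 5.11 to 5.38 in mid-late glands (adjusted p = 0.064 for late regressed and 0.324 for late functional glands).

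**Figure D5:**
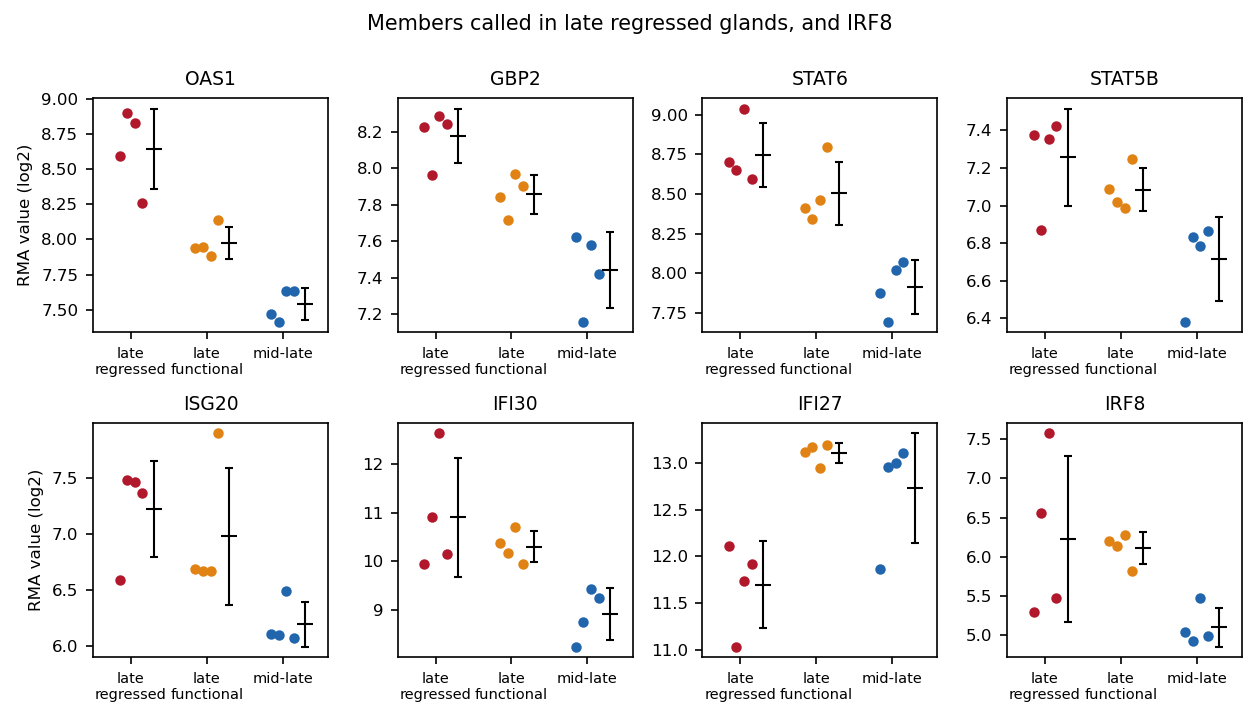
Points are the RMA log2 values of single arrays for the 8 genes named in the panels, with late regressed, late functional and mid-late glands from left to right, and bars the mean ± SD over 4 arrays; each panel has its own axis. OAS1 is highest in late regressed and lowest in mid-late glands with no overlap, IFI27 is lower in late regressed glands, and IFI30 and IRF8 spread most among the late regressed arrays.

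Other interferon pathway genes, 71 measured of a list of 89, were counted by the same fit. In late regressed against mid-late glands 5 were called higher and 2 lower, together 9.86% of the 71, against 13.1% of all genes. In late functional against mid-late glands 2 were called higher, 2.82% against 1.17% of all genes, and in late regressed against late functional glands none. The medians of the 71 differences were 0.01, 0.19 and -0.0966 in that order of comparisons. For the 39 interferon-induced effectors among them the medians were 0.01, 0.48 and -0.37. The ligands, receptors, kinases with their brakes and sensors had medians of 0.01 to 0.05 in late functional against mid-late glands. DTX3L and PARP9, which work as a complex on interferon-induced promoters, were the 2 called higher in late functional than in mid-late glands. DTX3L read 7.25, 7.79, 7.82 and 7.35 in late regressed, 7.75, 7.74, 7.78 and 7.62 in late functional and 6.33, 6.87, 7.04 and 7.01 in mid-late glands, with both late groups above mid-late ones. DTX3L was higher by 0.91 in late functional (adjusted p = 0.0403) and by 0.74 in late regressed glands (adjusted p = 0.0229), and PARP9 by 1.17 in late functional glands (adjusted p = 0.0487).

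The nuclear body proteins SP100 and SP110, the RNA sensor TLR7 and the death ligand TNFSF10 were the others called higher in late regressed than in mid-late glands. Their differences were 0.45 for SP100 (adjusted p = 0.0494), 0.62 for SP110 (0.0364), 0.71 for TLR7 (0.0259) and 1.48 for TNFSF10 (0.0305). APOL2, an apolipoprotein L, was lower by its difference of -1.15 (adjusted p = 0.0171) and PTPN1, a phosphatase that acts on JAK2 and TYK2, by -0.62 (adjusted p = 0.0338). Of the ligands, 4 of 10 were measured and none called. The interferons IFNB1, IFNG and IFNK lay below the low-signal level in every group mean. IFNL1, a type III interferon, averaged 4.78 in late regressed, 4.76 in late functional and 5.01 in mid-late glands.

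A measure taken per array moved with the groups. The mean of the 674 NC probe sets was 3.48 to 3.58 in late regressed, 3.53 to 3.61 in late functional and 3.65 to 3.75 in mid-late glands, so mid-late arrays lay above both late groups. With this mean as a covariate 0 members were called in either comparison with mid-late glands, and 0 of all 52707 probe sets were. In that fit 29 of the 99 differences of named genes changed sign, all of them uncalled without the covariate, and the GBP1 difference of late functional from mid-late glands became -0.31. Because this mean parted mid-late from late arrays without overlap, the fit can hardly tell it apart from the group difference. Its part in the differences was not tested beyond this fit.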

How the data were processed

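The authors deposited log2 values in 1 table with a column per array, processed with RMA per the submitters' processing notes, which name no version. That the values are log2 follows from their range. RMA usually includes a quantile step, so differences in total RNA yield per cell would be hidden, and array medians lay between 4.31 and 4.43. Titles gave the groups and call the arrays biological replicates. Neither scan dates nor batch labels were at hand, so no batch was tested. Precision is limited by 4 arrays per group.

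Of 52865 probe sets, 158 array controls were left out and 52707 tested, with no filter on low signal. In the platform annotation 24956 have 1 symbol, 361 several and 27390 none. RefSeq (assembly T2T-MMU8v2.0) was used to look up 24616 symbols by Entrez ID, of which 0 changed, and to see which genes are neighbours. For the members, 4 probe sets with several symbols were left out. All 52 members were tested, and 7 of them (GBP6, GBP7, IRF4, SOCS3, SOCS4, SOCS7 and STAT5A) had every group mean below 4.64, the 95th percentile of 674 probe sets with the prefix NC, whose targets are unknown here.

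One limma fit (version 3.58.1, R 4.3.3, lmFit and eBayes) took all 12 arrays as group means with no covariate, and Benjamini-Hochberg adjustment ran over all probe sets. The scripts were tested on simulated data. Named genes were every called member, a panel of 34 interferon genes of which 24 were measured, and uncalled members with a difference of at least 1 log2. Members outside that rule, such as IRF2, IRF5, IFI16, IFITM10 and OAS3, are named to complete their families or counts. The members and lists were chosen with earlier results of these data known. Promoter motifs were not searched. Alternatives covered filters on low signal at the median and at the NC level, centring on array medians, a repeated quantile normalization, limma's trended robust prior, only the groups compared, the replicate block, array weights, the 3′ to 5′ control difference or the NC mean as covariate, leaving out cross-hybridising kinds of probe set, averaging over probe sets, a 2-fold minimum, late regressed arrays 2 and 3 left out, and each array left out in turn. Counts of genes with no overlap between groups were also made without single arrays, an addition after seeing the data.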

Additional observations from a re-analysis of the deposited data

Results flagged for a closer look

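In 11 of 99 groups of 4 arrays tested, over the named genes, 1 array stood off from the other 3 by Dixon's test, which chance does in about 1 of 20 groups. IRF1 was high at 8.20 on late regressed array 3, where the others read 7.11 to 7.16. ISG20 stood off in every group: it was low at 6.59 on late regressed array 1 (others 7.36 to 7.48), high at 7.90 on late functional array 4 (others 6.67 to 6.69) and high at 6.49 on mid-late array 3 (others 6.07 to 6.11). STAT5B was low at 6.87 on late regressed array 2 (others 7.35 to 7.42) and low at 6.38 on mid-late array 1 (others 6.78 to 6.87). Late functional array 4 was low for ISG15 at 7.77 (others 8.53 to 8.67) and for IFNAR2 at 6.86 (others 7.13 to 7.16). SAMD9L was low at 9.03 on late functional array 3 (others 9.49 to 9.55) and still above the 8 arrays of the other groups. Mid-late array 1 was low for IFI27 at 11.86 (others 12.95 to 13.11) and for IFIT3 at 8.67 (others 10.19 to 10.46).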

How the results depend on the processing

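In late regressed against mid-late glands 8 members were called. The count was 4 with only the groups compared in the fit, 4 with probe sets averaged per gene, 4 with late regressed arrays 2 and 3 left out together, 4 with a 2-fold minimum and 0 with the mean of the NC probe sets as covariate. Leaving out 1 array gave 3 (without mid-late array 2) to 11 (without late regressed array 1), with 4 when mid-late array 1 was left out and 5 for mid-late array 3, late functional array 1, late regressed array 2 or late regressed array 3. In late regressed against late functional glands the 0 became 1, SAMD9L, with either filter on low signal, renewed quantile normalization, the trended robust prior, the NC covariate or the mean over probe sets, and 0 to 5 without 1 array, the 5 without late regressed array 1 being IFI27, IFIT1, OAS1, RTP4 and SAMD9L.

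In late functional against mid-late glands 5 members were called. The count was 3 with the filter at the NC 95th percentile, 3 with a 2-fold minimum, 8 with array weights, 10 with only the groups compared, 10 without late regressed arrays 2 and 3 and 0 with the NC covariate. Leaving out 1 array gave 0 (late functional array 2) to 7 (late regressed array 3), with 1 for late functional array 3, 2 for late functional array 1 or any mid-late array and 3 for late functional array 4. The F test called 10, then 0 with the NC covariate and 4 (mid-late array 2) to 14 (late regressed array 1) with 1 array left out, 5 for mid-late array 1 and 6 for mid-late arrays 3 or 4 and late functional arrays 1, 2 or 3. The causes were not tested.

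PLAAT4 reversed in late functional against mid-late glands, to -0.18 (adjusted p = 0.367), when cross-hybridising probe set types were left out, because its brightest probe set is of such a type. Of the named values under all alternatives, 2243 kept direction and side of the threshold, 104 lost the call, 37 gained one, 1 reversed and 94 changed sign without a call on either side. Of the 99 named differences in the main fit, 8 in late regressed and 5 in late functional against mid-late glands were called. The 104 lost calls came from those alone, and most of the 2243 were uncalled values that stayed uncalled. Of the 94, 29 came with the NC covariate and 13 with late regressed arrays 2 and 3 left out. OAS1, GBP2 and STAT6 lost their late regressed calls with the mean over probe sets (adjusted p = 0.249, 0.458 and 0.159).

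Replicate numbers did not pair the arrays: of 12 same-number pairs, 3 correlated over 0.1 (range -0.12 to 0.30). With the replicate block 8 members were called in late regressed against mid-late, 0 in late regressed against late functional and 0 in late functional against mid-late glands, where 4 of 52707 probe sets were called in place of 470, and 9 by the F test. A pseudocount was not applicable to log2 values. RTP4, PLAAT4 and the members below the NC level have low signal in at least 1 group, which limits their differences.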
